A study of Mus musculus with 6 samples.

Results

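Fatty acid oxidation and ketone synthesis were followed through 37 named genes, the enzymes, carriers and binding proteins that take a fatty acid into the hepatocyte, activate it, move it into mitochondria or peroxisomes and break it down, together with 1 enzyme of ketone body formation. Of these, 36 had a row of their own in the expression table and are described here, 1 row per gene, among 15443 rows and 13725 named genes in all. *Acsl3*, a further acyl-CoA synthetase, lay only on 2 rows shared with another gene (*Utp14b*) and is not reported. The members were chosen by their role in the pathway, with earlier results of these data known. A gene with several rows was represented by the row with the highest mean over all arrays.

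The data came from 6 whole-transcript microarrays (Affymetrix Mouse Gene 2.0 ST) of primary hepatocytes, liver parenchymal cells freshly isolated by collagenase perfusion and kept on collagen-coated plates. The 3 hypoxic cultures stood for 72 hours at 1% O2 and the 3 normoxic cultures for 72 hours at 19.5% O2, according to the labels, while the study's text gives a shorter exposure. Each of 3 wild-type C57BL/6 mice, 8 to 12 weeks old, gave 1 hypoxic and 1 normoxic culture, so the replicate was the mouse. The cells of both conditions were male according to the study's methods and carried no transgene. By the same methods they attached in medium with serum, dexamethasone and insulin, and then stood overnight in serum-free medium with dexamethasone. During the exposure the medium held neither serum nor dexamethasone. The values thus describe plated cells and not the liver in the animal.

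Hepatocytes take up long-chain fatty acids through membrane proteins, bind them in the cytosol and couple them to coenzyme A. Carnitine palmitoyltransferases carry the acyl group across the mitochondrial membranes, where repeated rounds of dehydrogenation, hydration, a second dehydrogenation and thiolysis release acetyl-CoA. Peroxisomes shorten very long, branched and bile acid side chains by a parallel set of enzymes, and the liver turns much of the acetyl-CoA made in mitochondria into ketone bodies for other tissues. Many of these genes are known targets of the fatty acid receptor PPAR alpha.

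The array medians lay between 7.42 and 7.49 on the log2 scale. Hypoxic arrays correlated with each other at r = 0.903 to 0.938 across rows and normoxic arrays at 0.958 to 0.963, so the hypoxic arrays were the more variable. Among the 36 genes the SD was larger in hypoxia for 23, with a median SD of 0.19 in hypoxia and 0.15 in normoxia. Over all 15443 rows it was larger in hypoxia for 10588, with median SDs of 0.24 and 0.16. The cells carried the hepatocyte transcript *Alb* (albumin) at a mean log2 value of 13.47 in hypoxia and 13.34 in normoxia, near the highest value in the table (13.51). Of 13 hepatocyte markers with a row, 4 were higher and 4 lower under hypoxia (30.8% each). Among all rows 15.5% were higher and 23.9% lower, which is the background for the marker counts here. Of 10 endothelial markers, 6 were higher and 1 was lower (60% and 10%). Their summed linear signal was 2231 to 2456 in hypoxia and 1455 to 1635 in normoxia. The 8 macrophage markers summed to 2734 to 2779 in hypoxia and 1940 to 2017 in normoxia (2 higher, 3 lower); of these *Cd68* averaged 10.75 in hypoxia and 9.40 in normoxia on the log2 scale, while *C1qa*, *C1qb* and *Cd14* were lower. The 5 cholangiocyte markers summed to 1222 to 1630 in hypoxia and 2762 to 4160 in normoxia (1 higher, 2 lower). That lower sum did not hold marker by marker, since 3 had positive and 2 negative log2 differences (median 0.34, lowest -2.81). The 8 stellate cell markers summed to 1132 to 1444 in hypoxia and 1061 to 1279 in normoxia (1 higher, 1 lower), and the 3 lymphoid markers to 965 to 1407 and 841 to 901 (1 higher). The table holds no zero and no detection call, so absence of a marker could not be scored.

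Under hypoxia 14 of the 36 genes were lower and 2 higher, and the other 20 did not pass the test (limma, Benjamini-Hochberg adjusted p below 0.05 over all 15443 rows). The genes that fell sat at the mitochondrial gate (*Cpt1a*, *Cpt2*), in the enzymes that handle double bonds (*Decr1*, *Decr2*, *Eci2*), in the peroxisome (*Acox2*, *Hsd17b4*, *Crot*), among the uptake and activation proteins (*Cd36*, *Slc27a2*, *Acsl4*, *Acsl5*) and at 1 short-chain dehydrogenase (*Acadsb*) and 1 ketone body enzyme (*Bdh1*). The 2 that rose were *Fabp1*, the liver fatty acid-binding protein, and *Acaa1b*, a peroxisomal thiolase. Of these genes 38.9% fell and 5.56% rose, against 23.9% and 15.5% of all rows (39.5% in either direction). With mouse as a block, 12 of the genes fell and 2 rose, against 20.1% and 13.3% of all rows. Their median log2 difference, hypoxia minus normoxia, was -0.32, against -0.05 over all rows. In mice 1, 2 and 3 it was -0.06, -0.57 and -0.42, against -0.10, -0.006 and -0.09 over all rows. In mouse 1 the median of the 36 genes was thus not below that of all rows. The 3 hypoxic values lay wholly below the 3 normoxic values for 19 of the genes and wholly above for 5, while 31.9% and 22.4% of all rows separated in those directions. Past a 2-fold change there were 6 genes lower and 2 higher (16.7% and 5.56%, against 8.24% and 5.89% of all rows). Leaving out mouse 2 left 6 lower calls among the 36 genes and leaving out mouse 3 left 9, with 2 higher calls each time. Across all rows the same omissions left 1306 and 1726 lower calls. In these bulk arrays, less RNA per cell and fewer cells of a type that expresses a gene cannot be told apart.

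**Figure D1:**
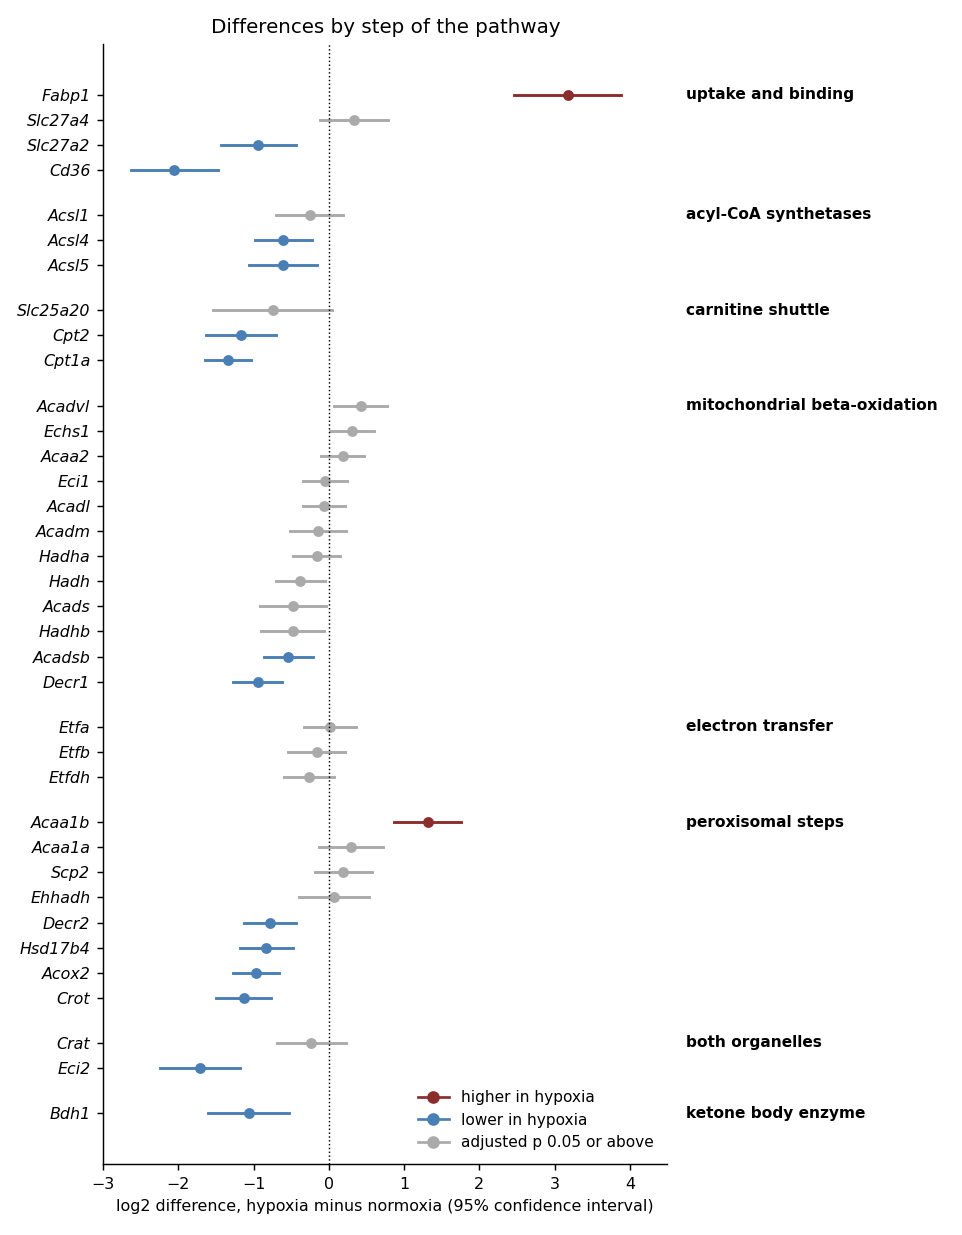
Log2 difference (hypoxia minus normoxia) of each of the 36 genes, ordered by step of the pathway, as points with 95% confidence intervals from limma (3 arrays per condition) and coloured by call. *Cd36* (-2.05) and *Eci2* (-1.71) lie farthest to the left and *Fabp1* (3.17) farthest to the right, while 10 of the 12 mitochondrial beta-oxidation genes have no call.

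Uptake and binding moved in both directions. *Fabp1*, which carries fatty acids through the hepatocyte cytosol, had log2 values of 7.79, 7.82 and 7.18 in the hypoxic cultures of mice 1, 2 and 3, against 3.95, 5.01 and 4.31 in the normoxic cultures. The 2 conditions were far apart in every mouse, with a difference of 3.17 (SE 0.30, adjusted p = 0.000739), or 9.02-fold. The normoxic values were the 6th, 54th and 9th lowest of the 15443 rows of their arrays, so that their distance from background is not known and the size of the fold is uncertain.

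*Cd36*, a scavenger receptor that brings long-chain fatty acids across the plasma membrane, moved the other way. Its values were 8.06, 8.64 and 8.81 in hypoxia, against 10.31, 10.92 and 10.44 in normoxia, with no overlap. The difference of -2.05 (SE 0.25, adjusted p = 0.00145) made normoxic signal 4.15 times the hypoxic one and was the largest fall among the 36 genes. CD36 is also carried by endothelial cells, of whose 10 markers 6 were higher in hypoxia (above), and by macrophages, whose markers moved both ways, and their part in the result was not tested.

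*Slc27a2* (FATP2), a transport protein with very long-chain acyl-CoA synthetase activity, had 8.58, 7.84 and 8.08 in hypoxia, against 9.03, 9.00 and 9.28 in normoxia. It was lower in all 3 mice, by 0.45 in mouse 1 and over 1 log2 unit in the others, and the difference was -0.94 (SE 0.21, adjusted p = 0.0123). A dimmer row of the gene had a difference of -0.37 (adjusted p = 0.427), the mean of both rows gave an adjusted p of 0.0624, and the call was lost without mouse 2 (0.0842) or mouse 3 (0.112). *Slc27a4* (FATP4), a related transporter, had 8.02, 7.65 and 7.46 in hypoxia, against 7.18, 7.59 and 7.35 in normoxia. The conditions overlapped, and the interval of its difference ran from -0.11 to 0.78 (adjusted p = 0.198).

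The upstream sequence of *Fabp1* is shown because the gene rose most. Its 250 bases upstream of the start site (RefSeq, GRCm38.p6, chr6:71199629-71199878, plus strand) held the only match among the 32 members with an upstream sequence to the DR1 repeat, 2 copies of AGGNCA in the same orientation with 1 base between them, the kind of site bound by HNF4 alpha and by PPAR alpha with its partner, searched on both strands. The capitals mark the match, on the reverse strand 67 to 55 bases before the start site, where it reads AGGCCATAGGTCA. *Acaa1b*, the other gene that rose, is set beside it (chr9:119157094-119157343, minus strand) and had no match. The sequences run 5′ to 3′ in the direction of the gene.
Fabp1: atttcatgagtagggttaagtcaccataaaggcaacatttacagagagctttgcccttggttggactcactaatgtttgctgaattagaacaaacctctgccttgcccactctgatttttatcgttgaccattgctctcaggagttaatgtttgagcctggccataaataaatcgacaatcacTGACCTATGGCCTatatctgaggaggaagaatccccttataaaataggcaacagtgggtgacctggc
Acaa1b: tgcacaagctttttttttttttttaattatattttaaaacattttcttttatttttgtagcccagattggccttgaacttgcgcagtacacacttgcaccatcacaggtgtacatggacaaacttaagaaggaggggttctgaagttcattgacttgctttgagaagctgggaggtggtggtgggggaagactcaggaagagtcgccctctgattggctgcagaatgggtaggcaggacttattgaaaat

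The 32 genes gave 35 promoters, and *Decr1*, *Acaa2*, *Hsd17b4* and *Crat* had no entry. The repeat was found in 2.86% of these and in 0.338% of all 32851 mouse promoters of the same length, and the TATA letters TATAAA on the gene's strand were likewise found in *Fabp1* alone (2.86%, against 7.59% of all promoters). The core of the hypoxia response element, ACGTG on either strand, was in 5.71% of the member promoters and in 16.6% of all promoters, whereas GCGTG was in 48.6% and 28.2%. The GC box letters GGGCGG were in 62.9% of the member promoters (22 of 35), against 32.7% of all, and the median GC content was 58.8% against 52.4%. A match describes letters only, and the absence of one bears only on these 250 bases.

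Activation to acyl-CoA is done by the long-chain synthetases, of which 2 of 3 fell. *Acsl4*, which prefers arachidonic acid, had 8.74, 9.00 and 8.75 in hypoxia, against 9.54, 9.57 and 9.19 in normoxia (difference -0.61, SE 0.16, adjusted p = 0.0223). The values did not overlap, yet the call was lost when either mouse 1 (adjusted p = 0.106), mouse 2 (0.104) or mouse 3 (0.0582) was left out, and with 3 of the single arrays left out (up to 0.0852). *Acsl5*, an intestinal and hepatic synthetase, had 9.95, 9.61 and 9.23 in hypoxia, against 10.20, 10.27 and 10.15 in normoxia (difference -0.61, SE 0.19, adjusted p = 0.0423). That call did not hold with mouse as a block (0.0556), and it was lost in 7 of 9 omissions, with an adjusted p of up to 0.209 without mouse 2. *Acsl1*, the main hepatic synthetase, had 8.73, 8.43 and 8.35 in hypoxia, against 8.91, 8.43 and 8.93 in normoxia, which overlapped (difference -0.25, interval -0.70 to 0.19, adjusted p = 0.316).

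In the carnitine shuttle both transferases fell. *Cpt1a*, the outer membrane transferase that malonyl-CoA inhibits and that sets the rate of entry into mitochondria, had 8.79, 8.85 and 8.77 in hypoxia, against 10.01, 10.23 and 10.20 in normoxia. The hypoxic values lay within 0.1 log2 unit of each other and over 1 unit below the normoxic values, with a difference of -1.34 (SE 0.13, adjusted p = 0.000741), so that normoxic signal was 2.54 times the hypoxic one. *Cpt2*, the inner membrane transferase that remakes acyl-CoA, had 8.15, 7.77 and 7.44 in hypoxia, against 8.83, 9.00 and 9.03 in normoxia (difference -1.17, SE 0.20, adjusted p = 0.00436). It was lower in all 3 mice, and the adjusted p was 0.0591 without mouse 2.

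*Slc25a20*, the carnitine-acylcarnitine carrier between the 2 transferases, differed from mouse to mouse. It had 7.97, 6.96 and 7.98 in hypoxia, against 7.87, 8.65 and 8.62 in normoxia, which is a difference of 0.09 in mouse 1, -1.69 in mouse 2 and -0.64 in mouse 3. The mean difference of -0.75 (SE 0.34) did not pass the test (adjusted p = 0.116), and it passed once mouse 1 was left out (0.0488).

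The upstream sequences of *Cpt1a* (chr19:3323051-3323300, plus strand) and *Eci2* (chr13:34994145-34994394, minus strand), which both fell, are printed because they show the GC box, the letters found in most member promoters of those searched. Capitals mark each GGGCGG, here read as CCGCCC on the gene's strand. Neither holds the repeat found in *Fabp1*.
Cpt1a: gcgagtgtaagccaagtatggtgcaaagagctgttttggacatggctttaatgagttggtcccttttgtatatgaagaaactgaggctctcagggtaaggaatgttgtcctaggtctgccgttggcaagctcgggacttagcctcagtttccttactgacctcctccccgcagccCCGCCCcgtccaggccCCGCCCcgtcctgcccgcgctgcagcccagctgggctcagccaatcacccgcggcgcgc
Eci2: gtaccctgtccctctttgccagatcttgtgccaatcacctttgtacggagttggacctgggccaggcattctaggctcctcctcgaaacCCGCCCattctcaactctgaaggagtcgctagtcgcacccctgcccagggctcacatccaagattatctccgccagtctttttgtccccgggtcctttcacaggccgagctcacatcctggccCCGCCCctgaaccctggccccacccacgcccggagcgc

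**Figure D2:**
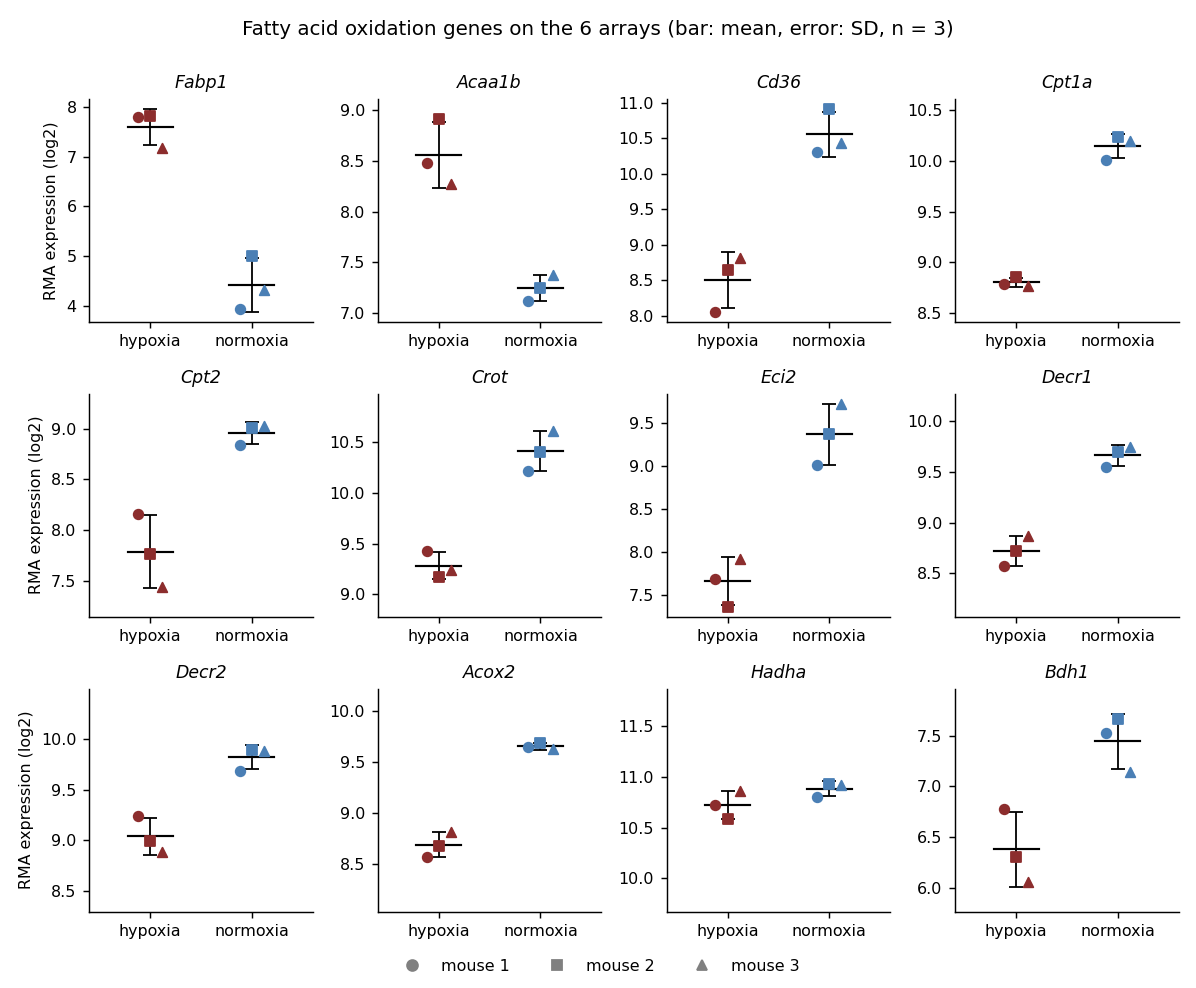
Log2 expression on each of the 6 arrays for 12 of the genes, hypoxia left and normoxia right, with a marker shape per mouse, the mean as a bar and the SD as error (n = 3); the panels cover different ranges of the log2 axis. The hypoxic points lie above the normoxic ones in *Fabp1* and *Acaa1b*, overlap them in *Hadha* and lie below them in the other 9 genes.

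Inside the mitochondrion 2 of 12 beta-oxidation enzymes fell, 0 rose and 10 did not pass the test in limma, although 5 of those 10 had an unadjusted p below 0.05 (2 higher and 3 lower). The 16.7% that fell lay below the 23.9% of all rows. The hypoxic values lay wholly below the normoxic ones in 6 of the 12 and wholly above them in 3 (50% and 25%, against 31.9% and 22.4% of all rows). The median difference was -0.15, and in single mice it was -0.02, -0.39 and -0.13. *Decr1*, the 2,4-dienoyl-CoA reductase needed for polyunsaturated chains, fell most, with 8.57, 8.72 and 8.86 in hypoxia, against 9.55, 9.70 and 9.75 in normoxia. Its 3 mice differed by almost the same amount (-0.97, -0.98 and -0.88; mean -0.95, SE 0.14, adjusted p = 0.00277). *Acadsb*, which acts on short branched chains, had 8.23, 7.94 and 8.09 in hypoxia, against 8.60, 8.74 and 8.52 in normoxia (difference -0.54, SE 0.14, adjusted p = 0.0217). It did not pass with mouse as a block (0.0566) or in 5 of 9 omissions (up to 0.198, without mouse 2).

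The acyl-CoA dehydrogenases, ordered by chain length, gave no common direction. *Acadvl*, for very long chains, had 9.19, 9.23 and 9.05 in hypoxia, against 8.60, 8.65 and 8.95 in normoxia (difference 0.42, SE 0.15, adjusted p = 0.0568). The values did not overlap, the unadjusted p was 0.0235, and the gene passed under 5 of the 9 other settings. *Acadl*, for long chains, averaged 10.21 ± 0.02 in hypoxia and 10.27 ± 0.02 in normoxia (SD, n = 3 each; difference -0.07, interval -0.34 to 0.21). *Acadm*, for medium chains, averaged 10.28 ± 0.22 and 10.43 ± 0.13 (difference -0.15, interval -0.52 to 0.23). *Acads*, for short chains, averaged 8.32 ± 0.22 and 8.79 ± 0.27 (difference -0.47, adjusted p = 0.0822). Of these 4, the longest-chain enzyme was thus the one with higher values in hypoxia and the shortest-chain enzyme the one with the lowest difference, and none passed the test.

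The later steps of the cycle were mixed as well. *Hadha*, the alpha subunit of the trifunctional protein, which hydrates and oxidises long chains, had 10.72, 10.59 and 10.86 in hypoxia, against 10.81, 10.93 and 10.92 in normoxia (difference -0.16, interval -0.48 to 0.15, adjusted p = 0.364). Its thiolase partner *Hadhb* averaged 8.46 ± 0.20 in hypoxia and 8.94 ± 0.24 in normoxia (SD, n = 3 each; difference -0.48, SE 0.18, adjusted p = 0.0681), with differences of -0.003, -0.87 and -0.57 in the single mice, and passed when mouse 1 was left out (0.0266). *Hadh*, the short-chain hydroxyacyl-CoA dehydrogenase, had a difference of -0.38 (SE 0.14, adjusted p = 0.0681). In contrast, *Echs1*, the short-chain hydratase, had a positive difference (0.30, SE 0.12, adjusted p = 0.0922). *Acaa2*, the mitochondrial thiolase, had 9.57, 9.53 and 9.55 in hypoxia, against 9.30, 9.43 and 9.37 in normoxia (difference 0.18, interval -0.10 to 0.47). *Eci1*, the mitochondrial enoyl-CoA isomerase, was close to 0 (difference -0.05, interval -0.34 to 0.24).

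Electrons from the dehydrogenases pass through the electron transfer flavoprotein to ubiquinone, and none of its 3 genes passed, either at an adjusted or at an unadjusted p of 0.05. *Etfa*, the alpha subunit, had 9.72, 10.03 and 9.90 in hypoxia, against 9.71, 10.00 and 9.90 in normoxia, so that the cultures of 1 mouse were within 0.1 log2 unit of each other. Its difference was 0.01 (interval -0.34 to 0.36). *Etfb*, the beta subunit, had -0.16 (interval -0.54 to 0.21) and *Etfdh*, the ubiquinone oxidoreductase, had -0.26 (interval -0.59 to 0.07).

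Among the 8 peroxisomal genes 4 fell, 1 rose and 3 did not pass the test, with a median difference of -0.36. *Crot*, which exports shortened chains as carnitine esters, had 9.43, 9.17 and 9.24 in hypoxia, against 10.22, 10.40 and 10.61 in normoxia (difference -1.13, SE 0.16, adjusted p = 0.00221). *Acox2*, the oxidase of branched chains and bile acid intermediates, had 8.57, 8.68 and 8.82 in hypoxia, against 9.65, 9.69 and 9.63 in normoxia (difference -0.97, SE 0.13, adjusted p = 0.00201). In both genes the conditions were clearly separated, and both calls held in each of the 9 omissions. *Hsd17b4*, the D-bifunctional protein that follows *Acox2*, averaged 9.25 ± 0.17 in hypoxia and 10.08 ± 0.15 in normoxia (SD, n = 3 each; difference -0.83, SE 0.15, adjusted p = 0.00576), with an adjusted p of 0.0787 without mouse 2. *Decr2*, the peroxisomal dienoyl-CoA reductase, had 9.24, 8.99 and 8.89 in hypoxia, against 9.68, 9.89 and 9.88 in normoxia (difference -0.78, SE 0.15, adjusted p = 0.00673). It lost its call without mouse 2 (0.0848) or mouse 3 (0.0667).

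The exception was *Acaa1b*, a peroxisomal 3-ketoacyl-CoA thiolase. It had 8.48, 8.91 and 8.27 in hypoxia, against 7.11, 7.24 and 7.37 in normoxia, with no overlap (difference 1.31, SE 0.19, adjusted p = 0.00259), which is 2.48-fold. Its close paralog *Acaa1a* had 7.80, 7.73 and 7.28 in hypoxia, against 7.13, 7.43 and 7.37 in normoxia, which overlapped (difference 0.30, interval -0.13 to 0.73, adjusted p = 0.224). The transcripts of the 2 thiolases are nearly alike, so probes may bind both and the split of signal between them is uncertain. *Ehhadh*, the L-bifunctional protein and a known PPAR alpha target, had 7.33, 7.08 and 7.74 in hypoxia, against 7.21, 7.50 and 7.23 in normoxia (difference 0.07, interval -0.39 to 0.53). Its sign differed between mice, as did that of *Scp2*, the sterol carrier thiolase (difference 0.19, interval -0.19 to 0.58).

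*Eci2* and *Crat* work in both organelles. *Eci2*, an enoyl-CoA isomerase for unsaturated chains, had 7.68, 7.36 and 7.92 in hypoxia, against 9.01, 9.37 and 9.72 in normoxia. Each hypoxic culture was over 1 log2 unit below its normoxic partner, and the difference of -1.71 (SE 0.23, adjusted p = 0.00199) made normoxic signal 3.28 times the hypoxic one. *Crat*, which exchanges short acyl groups with carnitine, had 8.54, 8.00 and 8.10 in hypoxia, against 8.49, 8.64 and 8.21 in normoxia (difference -0.23, interval -0.69 to 0.22, adjusted p = 0.369), and a second row of the gene had -0.05. Of the 4 auxiliary enzymes for double bonds, a grouping made after the values were seen, *Decr1*, *Decr2* and *Eci2* thus fell and *Eci1* did not pass.

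The mitochondrial and peroxisomal steps were set side by side without a test, since genes of 1 pathway on the same arrays are not replicates. The 18 mitochondrial genes (shuttle, beta-oxidation and electron transfer) had 4 lower and 0 higher calls in limma (7 lower and 2 higher at an unadjusted p below 0.05) and a median of -0.21. Their 22.2% of lower calls was near the 23.9% of all rows, and the 8 peroxisomal genes had 50% lower and 12.5% higher. The median difference of the 12 beta-oxidation genes exceeded that of the 8 peroxisomal genes by 0.15 in mouse 1, 0.27 in mouse 2 and 0.29 in mouse 3. With all 18 mitochondrial genes the gap was 0.15, 0.27 and 0.10. Thus the peroxisomal median lay lower in each mouse by a fraction of a log2 unit. Over the 3 mice, however, 4 of the 8 peroxisomal genes had negative differences (-1.13 to -0.78) and 4 positive ones (0.07 to 1.31). Their median lay between these 2 sets, where no gene lay. Of the 18 mitochondrial genes 14 had negative and 4 positive differences. The gap in medians is thus no common fall of the peroxisomal genes.

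Enzymes with related roles in the 2 organelles were compared within each mouse, with no test of the gaps. The change of *Decr1* minus that of *Decr2* was -0.16 ± 0.33 (SD over 3 mice), and that of *Cpt2* minus *Crot* was -0.04 ± 0.17. *Hadha* minus *Ehhadh* gave -0.23 ± 0.33, and *Acaa2* minus *Acaa1a* gave -0.12 ± 0.34. In each of these pairs the gap was smaller than the spread between mice, and in the last 2 pairs neither gene had passed the test. *Acaa2* minus *Acaa1b* was -1.13 ± 0.42, with -1.09, -1.57 and -0.73 in the single mice, so that only this pair of the 5 differed by more than its spread between mice.

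**Figure D3:**
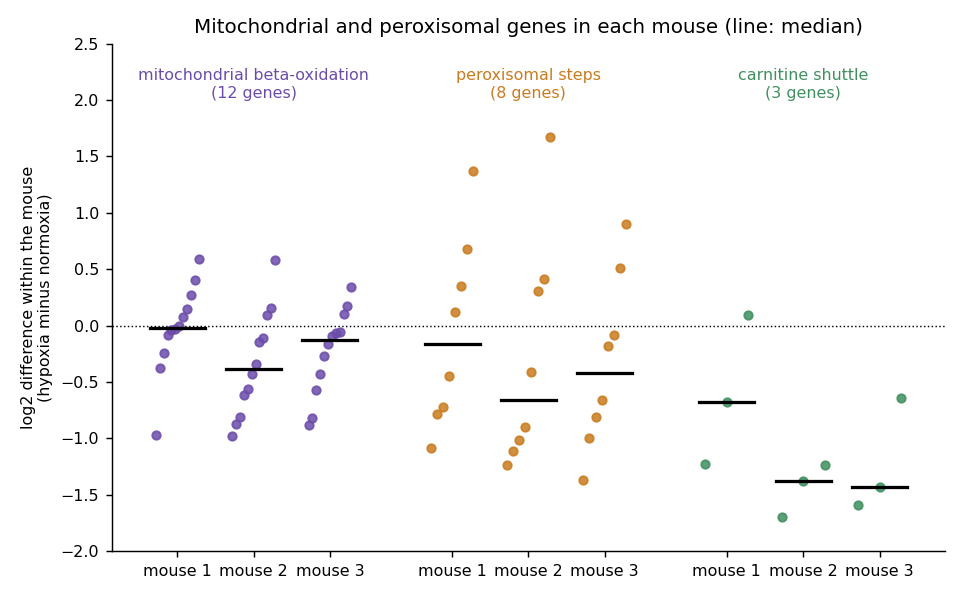
Log2 difference (hypoxia minus normoxia) within each of the 3 mice for the 12 mitochondrial beta-oxidation genes, the 8 peroxisomal genes and the 3 carnitine shuttle genes, 1 point per gene and a line at the median. The peroxisomal median lies below the median of the 12 beta-oxidation genes in every mouse, by 0.15 to 0.29. Over the 3 mice 4 of the 8 peroxisomal genes had negative and 4 had positive differences.

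Ketone body formation was represented by *Bdh1*, the mitochondrial hydroxybutyrate dehydrogenase that makes the last step. It had 6.78, 6.30 and 6.06 in hypoxia, against 7.53, 7.67 and 7.14 in normoxia, without overlap (difference -1.06, SE 0.23, adjusted p = 0.0103), and the adjusted p was 0.104 without mouse 2. Of 8 further ketone body genes 3 fell (37.5%, against 23.9% of all rows) and 0 rose in limma. At an unadjusted p below 0.05 there were 3 lower and 1 higher. *Acat1*, the mitochondrial acetoacetyl-CoA thiolase at the head of the pathway, had the smallest adjusted p of the 8 (difference -2.25, SE 0.21, adjusted p = 0.000735). *Aacs*, which uses acetoacetate in the cytosol (-0.49, adjusted p = 0.0351), and *Slc16a6*, a ketone body exporter in zebrafish liver (-0.50, adjusted p = 0.0194), had smaller differences, and *Aacs* did not pass with mouse as a block (0.0512). Leaving out mouse 1, mouse 2, mouse 3 or the normoxic array of mouse 1 or mouse 2 left *Acat1* as 1 lower call in each case.

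Genes around the pathway were read from lists of related genes. Of 19 other uptake and activation genes 5 rose and 3 fell (26.3% and 15.8%, against 15.5% and 23.9% of all rows). Leaving out mouse 2 left 2 higher and 1 lower. *Fabp4*, the fatty acid-binding protein of adipocytes, endothelial cells and macrophages, rose by 2.84 (SE 0.21, adjusted p = 0.000376), and *Slc27a5*, which activates bile acids, rose by 1.49 (SE 0.19, adjusted p = 0.00171). *Lpl*, the lipoprotein lipase, fell by 1.79 (SE 0.20, adjusted p = 0.00116). Its hypoxic mean was at the 0.477th percentile of its arrays, so the size of that fall is uncertain. All 3 genes of the list that fell lay among the dimmest 25% of rows. They could not be tested when those rows were left out, which left 3 higher and 0 lower calls. Endothelial markers were mostly higher in hypoxia and macrophage markers moved both ways, as given above, and their part in these values was not tested.

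Of 6 genes of carnitine supply and other carnitine acyltransferases 2 fell and 0 rose in limma (3 and 0 at an unadjusted p below 0.05), and the 33.3% that fell compare with 23.9% of all rows. *Bbox1*, which makes the last step of carnitine synthesis, fell by 1.27 (SE 0.19, adjusted p = 0.00280), and *Tmlhe*, the first step, had -0.93 (SE 0.30, adjusted p = 0.0457, up to 0.181 in the 9 alternatives that lost it). *Cpt1c*, the neuronal isoform, had -0.50 (adjusted p = 0.0526).

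Of 22 other mitochondrial acyl-CoA enzymes 9 fell and 1 rose (40.9% and 4.55%), with a median of -0.40. Of 19 other peroxisomal lipid enzymes 9 fell and 1 rose (47.4% and 5.26%), with a median of -0.51. Of all rows 23.9% fell and 15.5% rose. With mouse as a block 8 and 6 genes of the 2 lists fell (36.4% and 31.6%, against 20.1% of all rows). Among the mitochondrial ones were *Acot2*, a thioesterase whose close paralogs may share its probes (-1.96, SE 0.23, adjusted p = 0.00131), *Ivd*, the isovaleryl-CoA dehydrogenase of leucine breakdown (-1.41, SE 0.27, adjusted p = 0.00681), and *Acad9*, an assembly factor of complex I (-1.10, SE 0.23, adjusted p = 0.00976). In the peroxisomal list *Baat*, which conjugates bile acids, fell by 2.88 (SE 0.28, adjusted p = 0.000741) and *Aldh3a2*, the fatty aldehyde dehydrogenase, by 1.42 (SE 0.21, adjusted p = 0.00275). *Mlycd*, which breaks down malonyl-CoA, fell by 0.99 (SE 0.16, adjusted p = 0.00356). The lists were set by function, and the place of these enzymes in the cell was not measured. The peroxisomal gene that rose was *Phyh*, the phytanoyl-CoA hydroxylase (0.57, adjusted p = 0.0155), named after its value was seen. Across the 9 omissions the lower calls numbered 2 to 12 in both lists, with 2 in each list without mouse 2 and 2 and 3 without mouse 3, and the higher calls 0 to 2 and 0 to 1. *Acad9* (up to 0.0864, without mouse 2 or 3) and *Mlycd* (0.0573, without mouse 2) lost their calls in some of them.

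**Figure D4:**
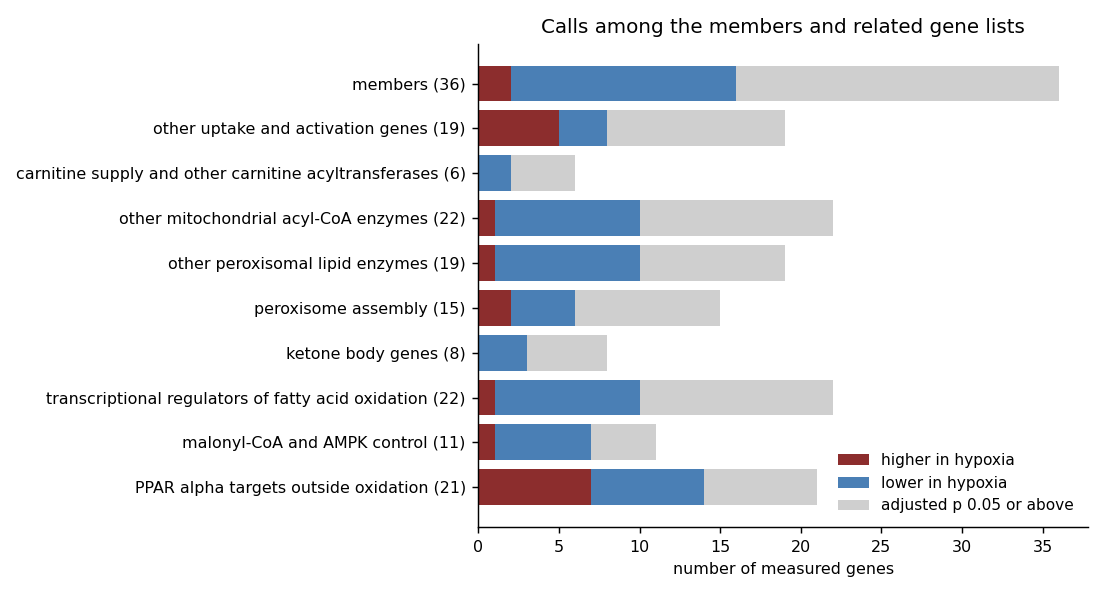
Number of genes higher, lower and without a call under hypoxia among the 36 members and in 9 lists of related genes, with the number of measured genes on the axis (limma, adjusted p below 0.05). Lower calls outnumber higher ones except in the other uptake and activation genes (5 higher, 3 lower) and the PPAR alpha targets (7 and 7).

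Of 22 regulators of the pathway 9 fell and 1 rose (40.9% and 4.55%, against 23.9% and 15.5% of all rows). With mouse as a block 5 fell and 0 rose, and this 22.7% was near the 20.1% of all rows that fell under the same fit. *Hnf4a*, a nuclear receptor of hepatocyte identity, fell by 1.03 (SE 0.13, adjusted p = 0.00160), and so did *Foxo1*, a fasting-responsive factor (-0.95), and *Pprc1*, a coactivator of the PGC-1 family (-0.83). *Ppara* itself, the receptor for which many members are named as targets, had 6.84, 7.01 and 7.17 in hypoxia, against 7.18, 7.45 and 7.33 in normoxia. Those values did not overlap, but the difference of -0.31 (SE 0.15, adjusted p = 0.134) did not pass. The genes of malonyl-CoA and AMP-activated kinase, the control of CPT1, had 6 of 11 lower (54.5%) and 1 higher. *Prkag2*, a regulatory subunit of the kinase, fell by 1.34, *Mlycd*, also in this list, fell as given above, and *Acaca*, the cytosolic acetyl-CoA carboxylase, had -0.87, with an adjusted p of 0.0554 without mouse 2. *Acacb*, the carboxylase at the mitochondrial surface, was the gene that rose (0.63, adjusted p = 0.0236; named as the exception after its value was seen). Without mouse 2 the lower calls numbered 3 among the regulators and 1 in the malonyl-CoA list, without mouse 3 they numbered 4 and 3, and the higher call of the malonyl-CoA list was lost in each case.

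The calls that stood firmest were 8 of the 16. *Cd36*, *Cpt1a*, *Decr1*, *Acox2*, *Crot* and *Eci2* stayed lower and *Acaa1b* stayed higher in all 9 other settings and all 9 omissions. *Fabp1* did so in the 8 settings that kept its row and in the 9 omissions. The remaining 8 calls were each lost in at least 1 of them.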

How the data were processed

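Total RNA of the 6 cultures was labelled with the WT PLUS kit and hybridised to 1 array each. The authors normalised the arrays with RMA in the oligo package, and the deposited values are log2 intensities, 1 per row and array (versions, array build and the rule for the deposited rows are not given in the sources used here). RMA shares its normalisation over arrays and compresses folds of dim rows. Symbols came from the platform annotation (13906 rows with 1 symbol, 415 with several, 1122 with none), and rows with several were not named. Arrays were assigned by the labelled condition and mouse. Hypoxia was compared with normoxia in limma 3.58.1 (R 4.3.3; lmFit and eBayes, no block, Benjamini-Hochberg adjustment over 15443 rows, threshold 0.05), tested beforehand on simulated data. Intervals are 95%. With 3 arrays per condition their number limits the precision. Alternatives were mouse as a block, trend and robust variances, renewed quantile normalisation, centring on brighter rows, mean of a gene's rows, 1-symbol rows only, omission of the dimmest 25% of rows, stricter thresholds and omission of each array or mouse. Mouse numbers pair the cultures, since the labels give 1 animal for both; same-mouse deviations correlated at -0.11, 0.02 and 0.10. In each related list the 3 genes with the smallest adjusted p were named, with single exceptions besides (*Phyh*, *Acacb*, *Ppara*, *Cyp4a10*, *Angptl4*). Members and lists were chosen with earlier results of these data known. Upstream sequences were RefSeq's for GRCm38.p6.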

Additional observations from a re-analysis of the deposited data

How the results depend on the processing

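With mouse as a block, 2 members were higher and 12 lower, against 2 and 14 without; *Acsl5* (adjusted p = 0.0556) and *Acadsb* (0.0566) lost their calls, *Aacs* (0.0512) did so among the related genes named, and the block changed no other member's call. Centring on the brighter rows gave 4 higher and 13 lower members, adding *Acadvl* and *Echs1* and losing *Acsl5*, and moved the median of all rows by 0.06; higher calls were then 23.5% of the members' calls, against 12.5%. At an adjusted p below 0.01, 9 members were lower. Omitting single arrays or mice gave 2 to 3 higher and 6 to 16 lower members, and 852 to 3114 higher and 1306 to 4131 lower rows. Signs turned only in differences near 0: *Eci1* was 0.0088 with centring on brighter rows, *Etfa* was -0.0498 with renewed quantile normalisation and -0.0681 to 0.0934 in the omissions, and *Ehhadh* was -0.148 to 0.314, negative without mouse 3 or its hypoxic array. The causes were not tested. The medians of the mitochondrial and peroxisomal steps kept their sign in every alternative. *Fabp1* could not be tested after the dimmest rows were left out.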

Other observations

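Of 21 PPAR alpha targets outside oxidation 7 rose and 7 fell (33.3% each, against 15.5% and 23.9% of all rows). Their median was -0.03, and without mouse 2 the calls were 6 higher and 4 lower. *Cyp4a12a*, a fatty acid omega-hydroxylase with close paralogs that may share its probes, rose by 3.36 (SE 0.31, adjusted p = 0.000725; its normoxic mean was at the 0.820th percentile of its arrays, so the size is uncertain), and *Fads2*, a desaturase, by 1.04 (SE 0.12). *Vnn1*, a pantetheinase, fell by 2.00 (SE 0.21). Chosen after their values were seen, *Cyp4a10*, another omega-hydroxylase, averaged 7.43 ± 0.26 in hypoxia and 5.60 ± 0.57 in normoxia, where it was at the 2.26th percentile of its arrays (SD, n = 3 each; adjusted p = 0.00357), and *Angptl4*, an inhibitor of lipoprotein lipase, averaged 8.58 ± 0.27 and 10.02 ± 0.17 (adjusted p = 0.00159). Genes of this list thus lay on both sides. Whether the receptor controls them in these cells was not tested.

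Of 15 peroxisome assembly and membrane genes 4 fell and 2 rose, shares (26.7% and 13.3%) close to those of all rows (23.9% and 15.5%). The membrane proteins *Pxmp4* (-1.71) and *Pxmp2* (-1.36) fell, and *Pex6*, a factor for receptor recycling, had 0.49 (adjusted p = 0.0254, up to 0.142 in the 7 omissions that lost it). Across the omissions 2 to 5 of the 15 fell and 0 to 3 rose.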
